A study of Mus musculus with 4 samples.

Results

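Infarcted left ventricle was compared with non-infarcted left ventricle at single CCGG sites and in 10-kb windows of the mouse genome, with wild-type and Neil3-/- hearts each supplying 1 pair of samples. A change counted for the comparison only if it went the same way in both pairs. All 4 samples of the series entered. They were a non-infarcted and an infarcted piece of wild-type ventricle and the same from Neil3-/- ventricle, all of C57BL/6 mice aged 8 weeks, taken 3 days after an induced myocardial infarction. Neil3 is a DNA glycosylase that removes oxidized bases, and the Neil3-/- samples are called Neil3-null below. The labels give neither the number of animals behind a sample nor whether the non-infarcted tissue came from the same heart as the infarcted tissue, so the tests measure the spread between these 4 samples. All groups, the non-infarcted ones included, come from hearts after infarction, and no unoperated heart was analysed here.

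Of 1070814 autosomal CCGG sites listed in any sample, 967498 were listed in all 4, and 876803 of those had a mean MspI signal of at least 10 and were used. They fell in 210425 windows of 10 kb, called bins here. Of these, 127436 bins held at least 3 used sites and 16292 held at least 10. The sites missing from some samples were nearly balanced: 3728 were listed in both infarcted and in neither non-infarcted sample, and 5044 the reverse. Total signal per library lay between 34161766 and 43985354 and was lowest in wild-type infarcted tissue for each of the 3 libraries. At Neil3 itself (chr8:53586867-53639065) the files listed 19 sites in non-infarcted and 17 in infarcted wild-type tissue and 17 and 15 in Neil3-null tissue, so the listed sites do not check the knockout label. DNA marks give no RNA levels, so the tissue label could not be checked against expressed markers.

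Cytosine in CpG is usually methylated (5mC) in adult tissue, and TET enzymes can oxidize 5mC to 5-hydroxymethylcytosine (5hmC), which is common in gene bodies that a cell transcribes. Regulatory DNA of genes that define a cell type tends to be unmethylated in that cell type and methylated elsewhere, so the methylation of a tissue depends on the cells it holds. In the first days after an infarct, cardiomyocytes die and neutrophils and then monocytes enter the wall. HpaII cuts CCGG only when it is unmodified, MspI cuts it also when the inner cytosine is methylated, and glucosylation of 5hmC before MspI digestion (the BGT library) blocks the cut. A higher log2 HpaII/MspI therefore stands for less modified cytosine, and a lower log2 BGT/MspI for more 5hmC. Both ratios share the MspI signal, and each was centred on its sample median, so they are relative levels within a sample. All levels and shifts below are log2 values, and a shift is infarcted minus non-infarcted. Paired values are given first for wild type and then for Neil3-null, and a signal that goes from one value to another goes from non-infarcted to infarcted tissue. Signals are printed as deposited: the median over used sites went from 33.4 to 27.5 and from 33.4 to 33.2 for HpaII and from 36.2 to 29.5 and from 35.7 to 35.7 for MspI, so signals of infarcted wild-type tissue run lower throughout, which the centring removes.

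Promoters whose CCGG sites were measured serve first as examples of how the signals read. RefSeq promoter windows (250 bases before to 50 after the start, GRCm38.p6, the mm10 assembly) numbered 31396 on the autosomes, and 53.5% of them held CCGG, a palindrome and therefore the same on both strands. Of these windows, 10940 held at least 1 used site. The windows printed here were chosen after their values were seen, to show where myeloid, muscle, TET and antiviral genes carried the measured sites. Capitals mark CCGG, and in these windows every capitalized site was among the used sites. The first is at chr1:171018676-171018975 on the plus strand, the second at chr4:132973845-132974144 on the plus strand, the third at chr7:81566932-81567231 on the minus strand, the fourth at chr10:62887275-62887574 on the minus strand and the last at chr2:131233813-131234112 on the plus strand.
Fcgr4: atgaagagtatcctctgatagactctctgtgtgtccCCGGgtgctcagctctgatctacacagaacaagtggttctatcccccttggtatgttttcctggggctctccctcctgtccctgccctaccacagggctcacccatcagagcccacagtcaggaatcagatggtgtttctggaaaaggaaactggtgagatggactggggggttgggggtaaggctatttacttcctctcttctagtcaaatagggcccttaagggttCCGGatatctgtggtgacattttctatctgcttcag
Fgr: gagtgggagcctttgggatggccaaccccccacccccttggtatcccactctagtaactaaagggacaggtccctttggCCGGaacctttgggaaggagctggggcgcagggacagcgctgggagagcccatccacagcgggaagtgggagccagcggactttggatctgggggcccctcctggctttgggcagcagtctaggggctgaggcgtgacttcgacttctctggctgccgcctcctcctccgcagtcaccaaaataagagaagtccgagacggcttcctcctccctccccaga
Fsd2: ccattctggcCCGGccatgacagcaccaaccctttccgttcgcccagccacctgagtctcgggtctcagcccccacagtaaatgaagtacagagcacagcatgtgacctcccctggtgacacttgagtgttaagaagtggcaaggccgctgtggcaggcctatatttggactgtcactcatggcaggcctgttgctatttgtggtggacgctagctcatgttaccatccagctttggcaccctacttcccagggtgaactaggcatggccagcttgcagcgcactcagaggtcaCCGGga
Tet1: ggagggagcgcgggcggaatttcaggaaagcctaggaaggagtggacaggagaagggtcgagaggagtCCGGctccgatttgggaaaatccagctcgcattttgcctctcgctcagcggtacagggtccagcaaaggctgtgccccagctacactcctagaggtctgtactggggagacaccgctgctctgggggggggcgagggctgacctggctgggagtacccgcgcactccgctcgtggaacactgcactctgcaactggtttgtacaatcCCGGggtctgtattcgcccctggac
Mavs: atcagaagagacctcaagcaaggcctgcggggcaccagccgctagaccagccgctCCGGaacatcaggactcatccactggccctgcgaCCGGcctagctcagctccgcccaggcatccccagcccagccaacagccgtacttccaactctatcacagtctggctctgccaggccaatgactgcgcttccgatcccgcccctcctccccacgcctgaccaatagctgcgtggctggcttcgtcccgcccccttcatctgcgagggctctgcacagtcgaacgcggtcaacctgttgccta

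At the promoter of Fcgr4, which encodes an activating Fc receptor of neutrophils and monocytes, the summed HpaII signal went from 141 to 173 in the wild-type pair and from 119 to 168 in the Neil3-null pair, while MspI went from 145 to 123 and from 104 to 103. The log2 HpaII/MspI shift was 0.52 and 0.51. Both infarcted samples were above both non-infarcted samples in HpaII. The single site of the Fgr promoter, a Src-family kinase gene of myeloid cells, went from 99.8 to 113 and from 95.4 to 125 in HpaII with MspI nearly level, from 24.5 to 25 and from 22 to 22.7. Its shifts were 0.13 and 0.35. Fsd2, a gene of striated muscle, moved the other way: its HpaII signal fell from 90.4 to 37.0 and from 85.7 to 56.3, with MspI from 205 to 193 and from 170 to 163, for shifts of −1.22 and −0.55. At the Tet1 promoter HpaII changed little, from 194 to 189 and from 206 to 207, and it was MspI that was lower in infarcted tissue, from 47.9 to 34.7 and from 48.7 to 34.0, which gave shifts of 0.42 and 0.53. The Mavs promoter, of the adaptor that relays viral RNA sensing at mitochondria, stood out in the other ratio: BGT went from 151 to 68.1 and from 113 to 73.4, and MspI from 48.1 to 52.0 and from 44.3 to 63.1, for BGT/MspI shifts of −1.27 and −1.14. These promoter values are descriptions of 1 or 2 sites each, with no test.

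Among the 2242 promoter windows with at least 2 used sites and enough MspI signal to rank (a mean of at least 20 per site), HpaII/MspI was higher in both pairs in 455, lower in both in 754 and opposite between pairs in 1033, with median shifts of −0.04 and −0.04. Only 5 of them were higher and 4 lower by at least 0.5 in both pairs. In BGT/MspI, 295 were higher in both pairs and 933 lower, with median shifts of −0.20 in the wild-type and −0.06 in the Neil3-null pair, and 51 were lower by at least 0.5 in both pairs against 2 higher. The BGT/MspI ratio was spread more widely in non-infarcted wild-type tissue than in the other 3 samples: its median absolute deviation over bins of at least 3 sites was 0.356, against 0.268 in infarcted wild-type, 0.269 in non-infarcted Neil3-null and 0.256 in infarcted Neil3-null tissue. Sorted by their mean BGT/MspI level, the 219201 sites with the highest level had median shifts of −0.35 and −0.04 and the 219201 with the lowest 0.31 and 0.02, a narrowing of the spread that was larger in the wild-type pair. The part of that library in the wild-type BGT shifts was not tested, and values without it are given beside the calls.

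Across the genome the 2 pairs shared only a small part of their shifts. Over the 127436 bins of at least 3 sites, HpaII/MspI moved the same way in both pairs in 55.8%, with a Pearson correlation across bins of 0.149 between the pairs' shifts. For BGT/MspI these values were 52.3% and 0.0642. Over single sites the correlation was 0.0706 for HpaII/MspI and 0.0473 for BGT/MspI. These correlations describe bins and sites that share libraries and an MspI signal, and neighbouring bins are not independent.

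In the fit over all bins of at least 3 sites (limma, infarct and genotype as additive terms, 1 residual degree of freedom, Benjamini-Hochberg adjusted p under 0.05 and the same direction in both pairs) no bin was called in either direction for either ratio, a called share of 0.0%. At an unadjusted p under 0.05 there were 10933 bins for HpaII/MspI and 8989 for BGT/MspI, and the smallest adjusted p was 0.513 and 0.192. With 2 samples a group, an exact permutation test of a single bin could not reach 0.05. By size alone, 603 bins were at least 0.5 higher in HpaII/MspI in both pairs (0.473% of bins) and 511 at least 0.5 lower (0.401%), and 523 moved by that much in opposite directions. For BGT/MspI the counts were 222 higher (0.174%), 326 lower (0.256%) and 335 opposite. With the ratios not centred, the BGT counts by size became 290 higher and 248 lower, so the balance of these directions depends on the scaling.

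What the pairs shared grew with the number of CCGG sites that a bin averaged over. In HpaII/MspI the correlation between the pairs was 0.106 in bins of 3 sites, 0.15 in bins of 4 to 5, 0.215 in bins of 6 to 9, 0.256 in bins of 10 to 14 and 0.285 in bins of 15 or more. Shifts of at least 0.3 in bins of 3 sites were 1323 higher in both pairs, 1581 lower in both and 1935 opposite. In bins of 10 to 14 sites they were 63, 28 and 9. The few bins of 15 or more sites past that size were 5 higher, 0 lower and 0 opposite. For BGT/MspI the correlation went from 0.0515 in bins of 3 sites to 0.251 in bins of 15 or more, where 1 bin was higher, 9 lower and 0 opposite.

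**Figure D1:**
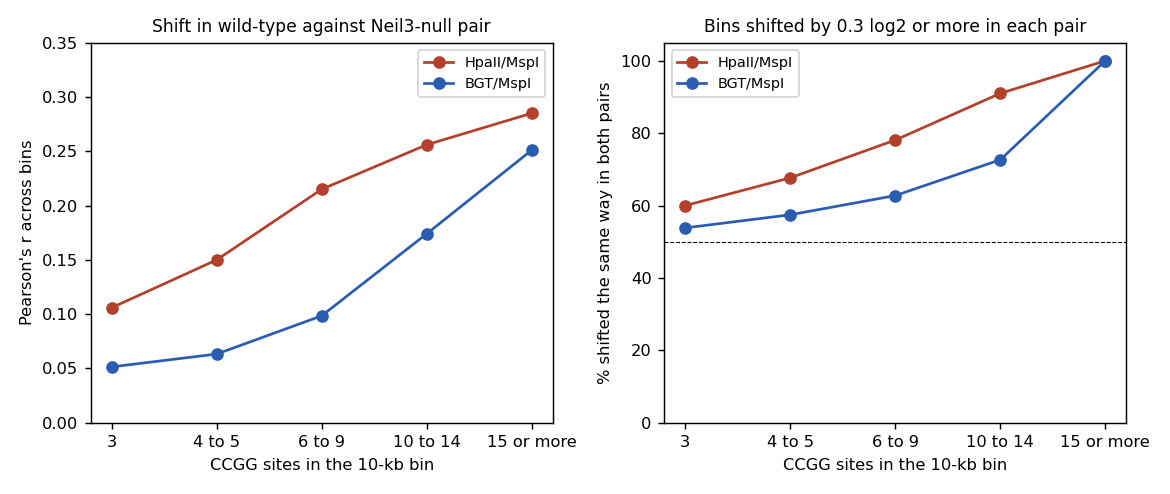
Agreement of the wild-type and Neil3-null pairs by the number of CCGG sites in a 10-kb bin, for log2 HpaII/MspI (red) and log2 BGT/MspI (blue). The left panel plots Pearson's r between the pairs' shifts, which for HpaII/MspI goes from 0.106 to 0.285. The right panel plots the percent of bins shifted by at least 0.3 in each pair that went the same way. Its dashed line marks equal numbers of same and opposite direction. The last points of the right panel rest on 5 HpaII/MspI and 10 BGT/MspI bins, and those of the left panel on 2598 bins.

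The spread between pairs fell with the number of sites, so the fit was repeated after the data were seen on the 16292 bins of at least 10 sites, re-centred on their own medians. It called 128 bins higher in HpaII/MspI (0.786% of bins tested) and 88 lower (0.54%), with 2010 bins at an unadjusted p under 0.05. In this fit limma estimated 1 common spread for all bins, a standard error of 0.095 for the mean shift, so a call says that the mean of both pairs was large against the typical disagreement between pairs and takes no account of a bin's own disagreement. The calls need the replicate pairing and the ratio. Without genotype as a block 6 bins were higher and 4 lower, and HpaII signal alone, not divided by MspI, gave 0 and 0. Not centring the ratios gave 307 higher and 57 lower. Leaving out an infarcted sample gave 0 and 0 for wild type and 0 and 1 for Neil3-null, and leaving out a non-infarcted sample 11 and 8 for wild type and 31 and 8 for Neil3-null, each in a fit without the block and with 1 sample in a group. The other repeat, which kept all bins of at least 3 sites and let the prior spread follow the number of sites, called 163 higher (0.128%) and 68 lower (0.0534%). It shared 32 of the 128 and 14 of the 88 calls.

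Within the called bins, the larger part came from HpaII itself. Signal changes were counted here relative to the median change over all bins of at least 3 sites. On that scale the median HpaII shifts were 0.35 and 0.25 in the higher and −0.32 and −0.23 in the lower bins. The median MspI shifts were −0.10 and −0.07, and 0.11 and 0.06. HpaII moved the called way in both pairs in 127 of the 128 higher and 85 of the 88 lower bins. MspI moved the other way in both pairs in 87 and 57. The calls were selected on the ratio of these signals, so such counts are in part built in. Of all 16292 bins, HpaII moved alike in both pairs in 10502 and fell in both in 4828. MspI rose in both in 4091. Signals as deposited could differ, as in the called higher bin of Pdgfra, where wild-type HpaII went from 356 to 317. In every one of the 128 higher bins both infarcted samples lay above both non-infarcted samples, and in 87 of the 88 lower bins below them. Such an order without overlap also held in 20% and 21.5% of all bins of at least 10 sites, and the calls were selected for it in part. Median shifts were 0.46 in the wild-type and 0.29 in the Neil3-null pair for the higher bins and −0.46 and −0.30 for the lower bins. The wild-type shift was the larger in 96 of the 128 and 68 of the 88, and the wild-type infarcted libraries were those with the lowest totals. The smaller of the 2 shifts was at least 0.2 in 103 and 76 bins and under 0.1 in 5 and 2. Of 1434 CCGG sites in the higher bins, 807 moved up in both pairs, 122 down in both and 505 opposite, and of 1001 sites in the lower bins 568 moved down in both, 81 up in both and 352 opposite. Over all used sites 53.1% moved the same way in both pairs, in either direction. The bins were selected on the sum of these same sites, so site counts here and below are in part built in. Sites of a bin are not replicates.

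**Figure D2:**
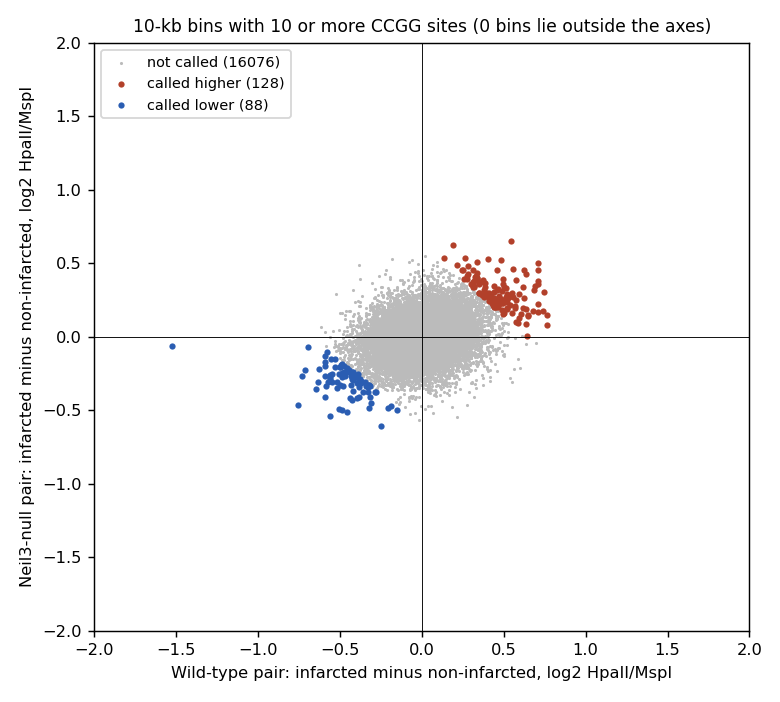
Shift of log2 HpaII/MspI in the wild-type pair (x axis) against the Neil3-null pair (y axis) for the 16292 bins of at least 10 CCGG sites, 1 point per bin; red points are the 128 called higher and blue points the 88 called lower. The called bins lie at the 2 corners where both pairs moved alike, and the blue point far to the left is a bin in Phldb1 with shifts of −1.52 and −0.06.

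The called bins were spread over 19 autosomes. A protein-coding gene overlapped 101 of the 128 higher bins (78.9%) and 81 of the 88 lower bins (92.0%), against 79.7% of all bins of at least 10 sites. Shifts were small beside the called bins and near 0 at 100 kb, but did not fall steadily with distance. Bins 10 kb away from the higher calls had median shifts of 0.06 and 0.06, with 108 higher and 50 lower in both pairs, and bins 100 kb away had 0.00 and −0.01, with 59 and 62. Around the lower calls the medians were −0.04 and −0.06 at 10 kb, with 25 higher and 60 lower. At 20 kb they were −0.07 and −0.06, with 35 and 65, and at 30 kb −0.03 and 0.02. At 100 kb 43 were higher and 43 lower.

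Mpo ranked 4 among the 128 called higher bins by the smaller of the 2 shifts. At Mpo, the neutrophil granule enzyme myeloperoxidase, the bin chr11:87790001-87800000 held 12 sites. Its HpaII signal went from 823 to 905 in the wild-type and from 736 to 984 in the Neil3-null pair, and its MspI signal from 971 to 701 and from 919 to 878. The centred log2 HpaII/MspI was −0.36 and −0.47 in the non-infarcted and 0.20 and −0.02 in the infarcted samples, so the groups did not overlap. The shifts were 0.55 and 0.46 (mean 0.51, SE 0.095, limma adjusted p = 0.000123). Of the 12 sites, 9 were higher in both pairs, none lower in both and 3 opposite. In tissue made of many cell types, fewer or more cells of a type and a change of the mark within a cell cannot be told apart.

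Irak2, a kinase of interleukin-1 and Toll-like receptor signalling, ranked first by the smaller of its 2 shifts among the called higher bins of at least 10 sites that overlap a gene. In chr6:113670001-113680000 (10 sites) HpaII signal went from 300 to 376 and from 286 to 394, and MspI from 470 to 347 and from 467 to 447. HpaII was higher in the infarcted samples of both genotypes. The shifts were 0.71 and 0.50 (limma adjusted p = 9.71e-07). A bin with no gene within 10 kb, chr6:99770001-99780000, shifted by 0.54 and 0.65, with HpaII from 217 to 263 and from 180 to 244 (limma adjusted p = 1.18e-06).

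Runx1, a transcription factor of blood-cell development, had HpaII signal from 284 to 334 and from 310 to 384 in chr16:92620001-92630000, with MspI from 258 to 221 and from 306 to 259. Its centred levels were 0.02 and −0.14 in the non-infarcted and 0.42 and 0.39 in the infarcted samples (limma adjusted p = 0.000618). Tiam1, an activator of the GTPase Rac, lies on the same chromosome, and its bin chr16:89980001-89990000 shifted by 0.48 and 0.52, with HpaII from 303 to 373 and from 288 to 382 (limma adjusted p = 0.000128). The other bins among the 10 leading ones were in Atxn1, which encodes ataxin 1 (0.63 and 0.45), in Map3k20, a stress-activated kinase (0.71 and 0.45), and in Srebf2, a transcription factor of cholesterol synthesis (0.46 and 0.45), in the ubiquitin ligase gene Rnf157 (0.64 and 0.42) and in App, the amyloid precursor (0.49 and 0.40).

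Further genes of blood cells were picked from the 128 after their values were seen. Laptm5, a lysosomal membrane protein of blood cells, moved by nearly the same amount in both pairs: in chr4:130910001-130920000 13 of 14 sites were higher in both pairs, HpaII went from 838 to 901 and from 809 to 1059, and the shifts were 0.35 and 0.36 (limma adjusted p = 0.0237). Fermt3, which encodes the integrin activator kindlin-3, had centred levels of −0.70 and −0.64 in non-infarcted and 0.01 and −0.29 in infarcted tissue, with 9 of 11 sites of chr19:7010001-7020000 higher in both pairs (limma adjusted p = 3.63e-05). Inpp5d, the lipid phosphatase SHIP1, shifted by 0.42 and 0.28 in chr1:87640001-87650000 (limma adjusted p = 0.0255). Rhoh, Prkcd and Plcg2, all of signalling in blood cells, were called too, but Plcg2 rested on the wild-type pair alone, with shifts of 0.64 and 0.01.

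**Figure D3:**
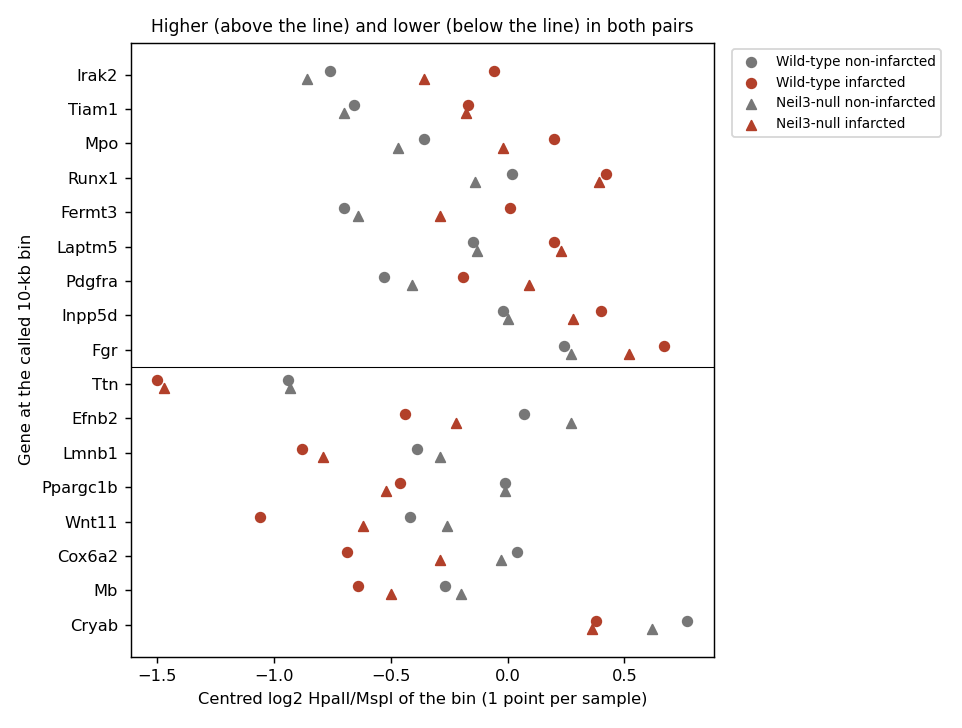
Centred log2 HpaII/MspI (x axis) of 17 called 10-kb bins in each sample, 1 point per sample; circles are wild type, triangles Neil3-null, grey non-infarcted and red infarcted. In the 9 bins above the line both red points lie to the right of both grey points, as at Mpo with −0.36 and −0.47 against 0.20 and −0.02, and in the 8 bins below it to the left, as at Ttn with −0.94 and −0.93 against −1.50 and −1.47.

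Among the 88 called lower bins, the one ranked first by the smaller of its 2 shifts lay in a muscle gene. Titin (Ttn), the giant spring protein of the sarcomere, had 4 of its 5 bins of at least 10 sites called. In chr2:76750001-76760000 (11 sites) HpaII signal went from 375 to 193 in the wild-type and from 381 to 271 in the Neil3-null pair, and MspI from 664 to 486 and from 653 to 664. The infarcted samples were low in both genotypes and the groups did not overlap. The shifts were −0.56 and −0.54 (mean −0.55, SE 0.095, limma adjusted p = 1.94e-05), and 9 of 11 sites were lower in both pairs with none higher in both.

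The 3 neighbouring called bins of Ttn were less even between the pairs. The shifts were −0.56 and −0.29 at chr2:76730001-76740000, −0.50 and −0.20 at chr2:76740001-76750000 and −0.70 and −0.07 at chr2:76720001-76730000. Over the whole gene (chr2:76703980-76982557), 19 of 28 bins were lower in both pairs, 3 higher in both and 6 opposite, with median shifts of −0.26 and −0.18. BGT/MspI over the same 28 bins had medians of 0.06 and 0.07. A further Ttn bin, chr2:76870001-76880000 with 4 sites, was called in the fit whose spread follows the number of sites, with HpaII from 146 to 43.2 and from 142 to 82.6 and shifts of −1.28 and −0.76 (limma adjusted p = 0.0152).

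**Figure D4:**
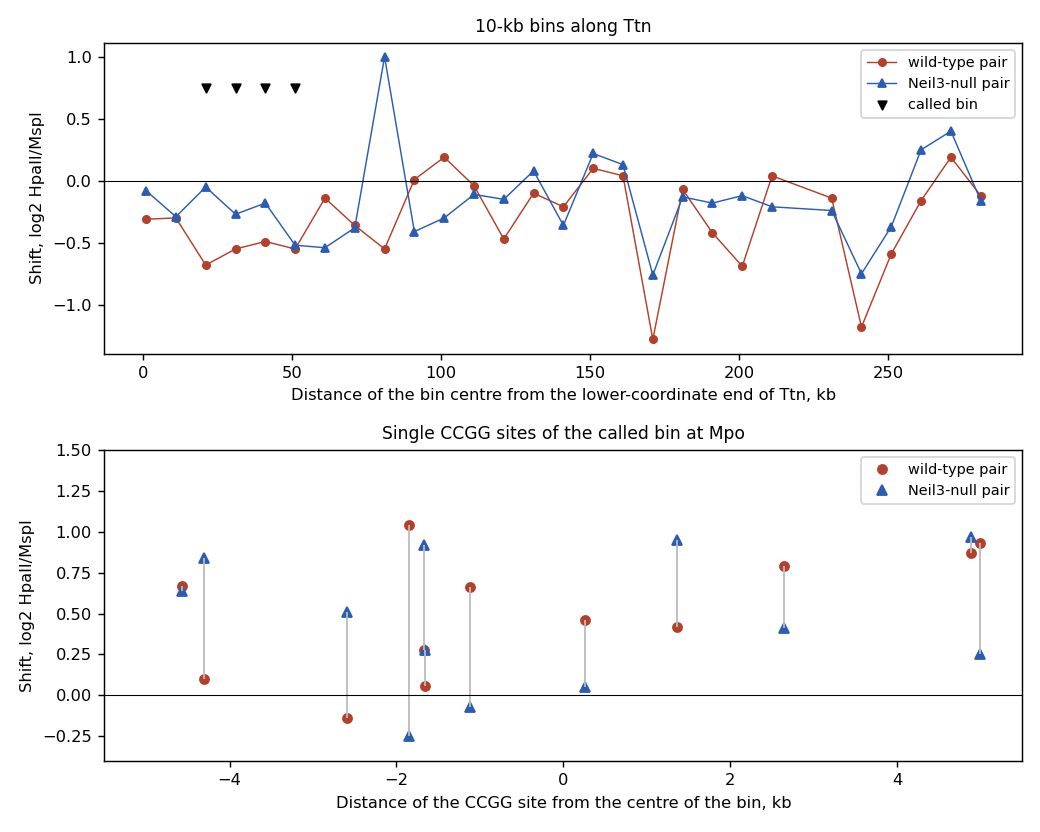
Upper panel, shift of log2 HpaII/MspI in each 10-kb bin along Ttn against distance from its lower-coordinate end, for the wild-type (red) and Neil3-null (blue) pair, with triangles over the 4 called bins; 19 of 28 bins are below 0 in both pairs. Lower panel, shift of each of the 12 CCGG sites of the called Mpo bin against distance from the bin's centre, with a grey line joining the 2 pairs; 9 sites are above 0 in both.

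Other genes of heart muscle and its energy supply were among the lower calls. Mb, the oxygen store myoglobin, had HpaII signal from 996 to 626 and from 952 to 791 over 16 sites of chr15:77010001-77020000, with shifts of −0.37 and −0.30 (limma adjusted p = 0.0388). The bin chr7:128200001-128210000 overlaps Cox6a2, the muscle form of a cytochrome c oxidase subunit, and also Itgad, an integrin of leukocytes. It fell by 0.73 and 0.27 (limma adjusted p = 0.000132), from a level of 0.04 to −0.69 and from −0.03 to −0.29. Cryab, the small heat-shock chaperone of muscle, which shares its bin with Hspb2, was at 0.77 and 0.62 in non-infarcted and 0.38 and 0.36 in infarcted tissue (chr9:50750001-50760000, limma adjusted p = 0.0491).

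Ppargc1b, a coactivator of mitochondrial genes, had 2 neighbouring bins called of its 3 bins of at least 10 sites. The third, chr18:61290001-61300000, was not called (limma adjusted p = 0.257). In chr18:61350001-61360000 HpaII went from 606 to 360 and from 595 to 452, with shifts of −0.45 and −0.51 (limma adjusted p = 0.000289), and the next bin shifted by −0.42 and −0.37. Over its 12 bins, 7 were lower in both pairs and 2 higher. Msi2, an RNA-binding protein of progenitor cells (chr11:88339382-88718306), had 3 of its 10 bins of at least 10 sites called. Of these, chr11:88380001-88390000 had shifts of −0.39 and −0.42 and 9 of 12 sites lower in both pairs. Of all 38 Msi2 bins, 18 were lower in both pairs, 4 higher and 16 opposite.

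Efnb2, the arterial endothelial ligand ephrin-B2, had HpaII signal from 546 to 357 and from 641 to 535 in chr8:8620001-8630000, with MspI from 481 to 430 and from 477 to 549. The levels were 0.07 and 0.27 in non-infarcted and −0.44 and −0.22 in infarcted tissue (limma adjusted p = 0.000147). Wnt11, a secreted factor of heart development, shifted by −0.64 and −0.35 (chr7:98850001-98860000, limma adjusted p = 0.000132). Lmnb1, which encodes lamin B1 of the nuclear envelope, went from −0.39 to −0.88 and from −0.29 to −0.79 in chr18:56710001-56720000 (limma adjusted p = 0.000177). Foxn3, a forkhead repressor, and Psat1, an enzyme of serine synthesis, were also among the 10 leading lower bins, with shifts of −0.75 and −0.46 and of −0.59 and −0.41. So were Lin9, a subunit of a cell-cycle gene regulator (−0.42 and −0.43), Pitpnc1, a lipid transfer protein (−0.44 and −0.42), and Clic4, a chloride channel protein (−0.38 and −0.41).

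Gene lists by cell type and function showed how these genes sat among their peers, as counts of bins of at least 3 sites without a test of the list. All 127436 bins had median shifts of 0.00 and 0.00, with 35608 higher and 35454 lower in both pairs. The 351 bins of 47 cardiomyocyte genes had medians of −0.14 and −0.08 in HpaII/MspI, with 54 higher and 175 lower in both pairs. The median level of the 351 bins was 0.09 and 0.14 in non-infarcted and −0.05 and 0.01 in infarcted tissue, and Ttn supplied 28 of them. Of the 71 with at least 10 sites, 6 were called lower and 0 higher, where 0.54% and 0.786% of all such bins were called. The 6 were 4 neighbouring bins of Ttn and 1 each in Mb and Cryab. Next in the list by shared shift was Atp2a2, the calcium pump SERCA2 of the sarcoplasmic reticulum, whose bin chr5:122470001-122480000 had HpaII from 223 to 87.1 and from 173 to 146 and shifts of −1.21 and −0.65, with limma adjusted p = 0.075 in the fit whose spread follows the number of sites. In the other direction the leading bins of the list were in Fhod3, a sarcomere formin (0.60 and 0.65), and Xirp2, an actin-binding protein of muscle (0.58 and 0.46), neither of them called.

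The 155 bins of neutrophil and macrophage genes had medians of 0.11 and 0.07, with 66 higher and 34 lower in both pairs. Of 36 bins of at least 10 sites, 4 were called higher and 0 lower, where 0.786% and 0.54% of all such bins were called. Among them were bins in Mpo, in Fgr and in Ctsz, a lysosomal protease. Fgr had HpaII from 917 to 972 and from 908 to 1070 in chr4:132970001-132980000, the bin of the promoter printed above, with 11 of 14 sites higher in both pairs and shifts of 0.43 and 0.26 (limma adjusted p = 0.0335). Ctsz shifted by 0.34 and 0.43. The leading lower bins of the list were in Mertk (−0.25 and −0.27) and Lcp1 (−0.46 and −0.24), neither of them called. Median levels over all 155 bins of the list were 0.17 and 0.19 in non-infarcted and 0.31 and 0.28 in infarcted tissue.

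The 107 bins of inflammation and cytokine genes had medians of 0.04 and 0.05, with 46 higher and 20 lower, and none of its bins of at least 10 sites was called. Cxcr4, the receptor that guides leukocytes towards CXCL12, was called in the fit whose spread follows the number of sites. In chr1:128580001-128590000 HpaII went from 163 to 258 and from 148 to 231 and MspI from 161 to 146 and from 181 to 154, so HpaII was higher in both infarcted samples (shifts 0.76 and 0.88, limma adjusted p = 0.00951). Il1b, which encodes interleukin-1 beta, shifted by 0.68 and 0.63 and the neutrophil collagenase gene Mmp8 by 0.64 and 0.74, with limma adjusted p = 0.244 and 0.215 in that fit. The leading lower bins of the inflammation list were in Osmr (−0.33 and −0.24) and Il1r2 (−0.24 and −0.38), neither of them called. Lymphocyte genes had medians of 0.05 and 0.04 over 111 bins, with 38 higher and 22 lower, and again no call among the bins of at least 10 sites.

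Endothelial genes moved in the direction of the muscle genes: 151 bins had medians of −0.10 and −0.04, and 27 were higher and 69 lower in both pairs. In the 48 bins of the list with at least 10 sites the medians were −0.14 and −0.005, so there the Neil3-null pair hardly moved. Of these 48, 1 was called lower, in Efnb2, where 0.54% of all such bins were called. After Efnb2 came Sox18, a transcription factor of vessel development, at −0.68 and −0.46, which was not called. The leading higher bins of the list were in Tek (0.36 and 0.65) and Emcn (0.31 and 0.33), neither of them called. Genes of oxidative metabolism had medians of −0.08 and −0.04 over 192 bins, with 38 higher and 73 lower. Of 22 bins with at least 10 sites, 1 was called lower, that of Cox6a2, against 0.54% of all such bins. The furthest shared shifts of the list went up, in Esrrg (0.74 and 0.85) and Ppargc1a (0.59 and 0.71). The leading lower bins were in Ogdh (−0.55 and −0.87) and elsewhere in Ppargc1a (−0.44 and −0.52). None of these leading bins was called. Fibroblast and matrix genes had medians of 0.04 and 0.01, with 46 higher and 34 lower. Their leading lower bins were in Ddr2 (−0.51 and −0.66) and Tnc (−0.37 and −0.42), neither of them called. Of 37 bins with at least 10 sites, against a share of 0.786% of all such bins, 1 was called higher, in Pdgfra, the receptor that marks fibroblasts. That bin (chr5:75190001-75200000) had HpaII from 356 to 317 and from 356 to 447 and MspI from 473 to 322 and from 427 to 370, so in the wild-type pair MspI changed more than HpaII.

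Smooth muscle and pericyte genes had 28 higher and 30 lower, germline genes 13 and 14, housekeeping genes 13 and 19 and imprinted genes 27 and 33. Reep5, a shaper of the endoplasmic reticulum counted here among housekeeping genes, was called lower with shifts of −0.31 and −0.45. It was the 1 call among 17 bins of that list with at least 10 sites, against 0.54% of all such bins called lower. Hypoxia and angiogenesis genes had 17 higher and 25 lower. Of 24 bins with at least 10 sites, 1 was called higher, at Pfkfb3, a regulator of glycolysis (0.36 and 0.37, limma adjusted p = 0.017). The share called higher over all such bins was 0.786%. Genes of DNA methylation and repair had 29 higher and 30 lower. The direction of the cardiomyocyte, endothelial, oxidative metabolism, neutrophil and macrophage, and inflammation medians in HpaII/MspI was the same in both pairs with the ratio not centred, with quantile normalization and with HpaII alone. The smallest of these medians in size was −0.02, for endothelial genes with HpaII alone in the Neil3-null pair. The other lists of this paragraph turned to more higher than lower bins under another scaling. With HpaII alone hypoxia and angiogenesis genes had 28 higher and 18 lower, housekeeping genes 24 and 13 and imprinted genes 32 and 25. With the ratio not centred smooth muscle and pericyte genes had 30 and 25 and germline genes 16 and 10. Genes of DNA methylation and repair then had 34 and 27. All bins also had more higher than lower under these scalings, 38732 and 37057 with HpaII alone and 40317 and 30740 with the ratio not centred.

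**Figure D5:**
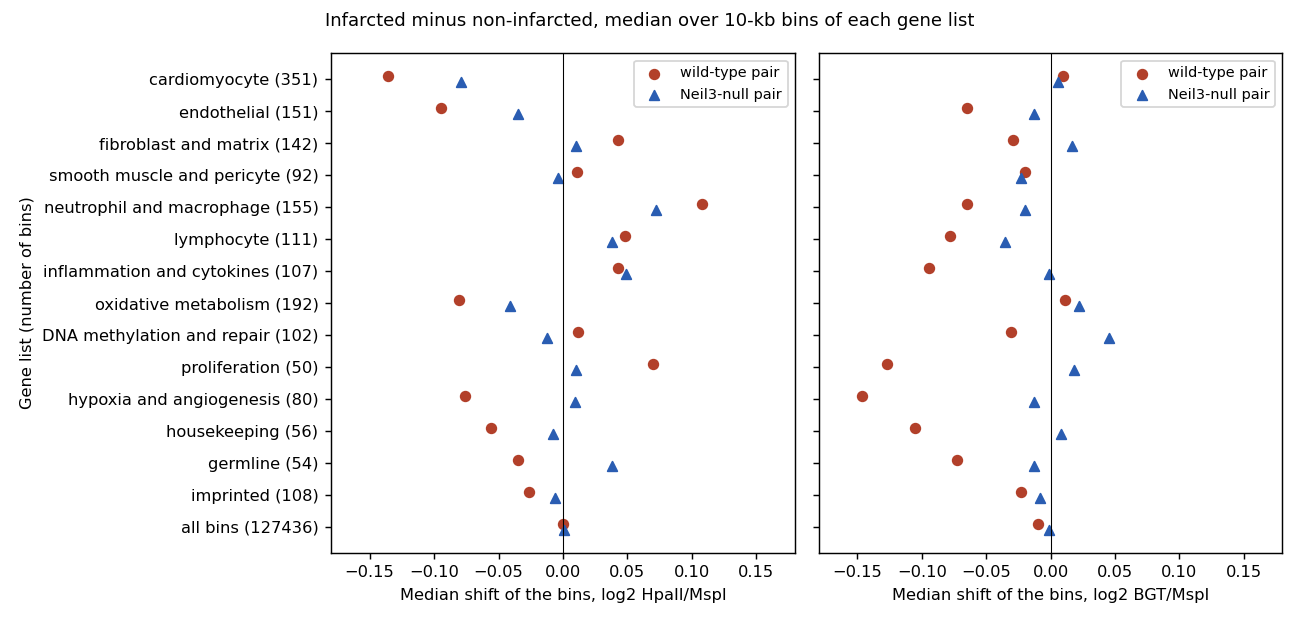
Median shift over the 10-kb bins of each gene list (number of bins in brackets), in log2 HpaII/MspI (left) and log2 BGT/MspI (right), for the wild-type (red circles) and Neil3-null pair (blue triangles). In HpaII/MspI cardiomyocyte genes sit at −0.14 and −0.08 and neutrophil and macrophage genes at 0.11 and 0.07; the medians are descriptions with no error bar, because bins of a list are not replicates of a sample.

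In BGT/MspI, whose decrease stands for more 5hmC, the bins of at least 10 sites gave 9 calls higher (0.0552%) and 8 lower (0.0491%), with 1582 bins at an unadjusted p under 0.05 and a common standard error of 0.12. The wild-type shift was the larger in all 17, with median shifts of 0.77 and 0.30 for the higher and −0.74 and −0.28 for the lower bins. Without the wild-type non-infarcted sample, whose BGT/MspI ratio was the most widely spread of the 4, 1 bin was higher and 2 lower. Without Neil3-null non-infarcted the counts were 650 and 708, without wild-type infarcted 0 and 0 and without Neil3-null infarcted 2 and 1. Without the genotype block 1 was higher and 0 lower. These calls therefore rest on which samples enter.

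Heg1, a membrane receptor of endothelium and heart, led the higher bins. In chr16:33750001-33760000 BGT signal went from 203 to 335 and from 251 to 355, and MspI from 436 to 382 and from 432 to 442. Both infarcted samples were higher, 9 of 10 sites moved up in both pairs, and the shifts were 0.96 and 0.45 (mean 0.70, SE 0.12, limma adjusted p = 3.32e-05). It was the 1 bin also called higher in the fit whose spread follows the number of sites (0.000785% of bins). Egln1, the prolyl hydroxylase that marks hypoxia-inducible factor for removal, shares the bin chr8:124900001-124910000 with Sprtn and shifted by 0.63 and 0.40 (limma adjusted p = 0.0293). The other higher bins with a gene were in Fry, Mapre2, Foxn3, Orm3, Ror2 and Acacb, of which Acacb, an acetyl-CoA carboxylase, shifted by 0.85 and 0.15.

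Rgma, a co-receptor of bone morphogenetic proteins, led the lower bins. BGT signal in chr7:73390001-73400000 went from 681 to 363 and from 524 to 429, and MspI from 431 to 378 and from 435 to 462, so the highest BGT value was that of the non-infarcted wild-type library. The shifts were −0.67 and −0.39 (limma adjusted p = 0.0234). Next were Myo10, an unconventional myosin of filopodia (−0.61 and −0.37), Coro1c, an actin-binding coronin (−0.75 and −0.36), and Nkx2-2, a transcription factor of neural tube and pancreas (−0.72 and −0.29), where 10 of 16 sites of chr2:147180001-147190000 were lower in both pairs and none higher. Sp7, the bone factor osterix, shifted by −0.73 and −0.27. The bin at Phldb1 (−1.68 and −0.15) took its shift from MspI, which went from 583 to 1482 in the wild-type and from 557 to 624 in the Neil3-null pair, and the same MspI value underlies its HpaII/MspI call. The fit whose spread follows the number of sites called 3 bins lower (0.00235%). Over all bins of at least 3 sites, 32278 were higher and 34335 lower in both pairs. Cardiomyocyte genes had 96 higher and 90 lower and oxidative metabolism genes 63 and 54. Lymphocyte genes had 20 and 43, hypoxia and angiogenesis genes 13 and 26, endothelial genes 33 and 54, inflammation genes 25 and 39 and neutrophil and macrophage genes 35 and 50, each with the larger median shift in the wild-type pair, −0.15 against −0.01 for hypoxia and angiogenesis genes and −0.09 against −0.00 for inflammation genes. The lower count exceeded the higher in these 5 lists with the ratio not centred, with quantile normalization and with BGT alone too. The margin was as little as 33 against 32 for inflammation genes with quantile normalization. For hypoxia and angiogenesis genes with BGT alone it was 19 against 18. All bins had 36826 higher and 30091 lower with the ratio not centred and 33568 and 32196 with quantile normalization. With BGT alone all bins had 29621 higher and 36323 lower, so there the lower direction prevailed in the whole set too. The Neil3-null endothelial median was above 0 under these 3 scalings, at 0.003, 0.008 and 0.027.

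The leading bins of the whole set of 127436, most with 3 or 4 sites, moved further than the site-rich ones. At Sox5, a transcription factor of cartilage and nerve cells, HpaII signal in chr6:143840001-143850000 went from 39.4 to 83.0 and from 35.1 to 85.5, and MspI from 81.0 to 73.8 and from 75 to 85.6. Both infarcted HpaII values were above both non-infarcted values, all 4 sites were higher in both pairs, and the shifts were 1.17 and 1.09. The limma adjusted p was 0.513 in the fit over all bins and 0.00951 in the fit whose spread follows the number of sites. Pag1, an adaptor that restrains Src-family kinases, shifted by 1.04 and 1.26, Commd10 by 1.30 and 1.01 and Asap1, a GTPase-activating protein, by 1.0 and 1.1.

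In the lower direction, Fhit, a nucleotide hydrolase at a fragile site, shifted by −1.63 and −1.29 in chr14:10460001-10470000, and Ptprm, an adhesion-type tyrosine phosphatase, by −1.06 and −1.36 in chr17:66880001-66890000. The largest was a bin with no gene within 10 kb, chr15:68370001-68380000, at −2.10 and −1.31 (limma adjusted p = 0.00262 with the spread following the number of sites, 0.513 without). For BGT/MspI the leading bins of this set were Crkl, an adaptor protein (1.19 and 0.96), and a bin on chromosome 8 with no gene within 10 kb (−1.01 and −0.99). Neighbouring bins seldom moved together by 0.5 or more: 4 places had 2 adjacent higher bins in HpaII/MspI, at Cers6, Actl6a, Btrc and Pcgf6, and 1 place had 2 adjacent lower bins in BGT/MspI.

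Single sites were noisier. No site was called in HpaII/MspI in either direction (0.0%), with 58848 sites at an unadjusted p under 0.05 and a smallest limma adjusted p of 0.728. By size, 8467 sites were at least 1 higher in both pairs (0.966%), 6626 at least 1 lower (0.756%) and 11212 moved by that much in opposite directions. These sites had low HpaII signal. In the higher sites HpaII was under 5 in 22.6% of wild-type and 40.5% of Neil3-null non-infarcted values, against 2.23% and 3.88% of all used sites. In the lower sites it was under 5 in 44.6% and 37.5% of the infarcted values, against 4.46% and 3.91%. The part of the low end of the HpaII libraries in these shifts was not tested.

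The leading single sites show this. At chr3:51425795 inside Naa15, a subunit of the N-terminal acetyltransferase, HpaII went from 23.8 to 3.56 and from 30.3 to 4.44 with MspI from 26.7 to 24.7 and from 36.8 to 34.0, for shifts of −2.64 and −2.66 (limma adjusted p = 0.728). Sites inside Dock3 (chr9:107028353, −2.89 and −2.61) and Rims2 (chr15:39535918, −2.55 and −2.52) had infarcted HpaII values within the same range. The 5th percentile of all HpaII values was 3.58 in wild-type infarcted and 4.41 in Neil3-null infarcted tissue, so these values sit at the low end of their libraries. The leading higher site by HpaII itself was chr15:63658850, 117121 bases from Gsdmc, its nearest gene. Its HpaII went from 8.74 to 53.2 and from 4.45 to 40.1 and its MspI from 31.6 to 20 and from 25.3 to 28.1. Its shifts were 3.25 and 3.02. The Neil3-null shift also starts at the low end, since the 5th percentile of HpaII in non-infarcted Neil3-null tissue was 4.72.

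The leading higher sites moved through MspI instead. At chr6:24665026, 31 bases from Wasl, which encodes the actin regulator N-WASP, MspI went from 60.1 to 1.73 and from 54.6 to 1.91 while HpaII went from 133 to 132 and from 116 to 172. The shifts were 5.1 and 5.4 in HpaII/MspI and 4.36 and 4.34 in BGT/MspI. The site inside Lrrc8d, a volume-regulated channel subunit (chr5:105759418), had MspI from 87.1 to 4.88 and from 82.2 to 1.63, and the site nearest to Id2 (chr12:25289579) from 45.4 to 1.62 and from 39.6 to 0.795. A loss of MspI signal at 1 site in both infarcted samples is not read here as less modified cytosine, since MspI cuts modified sites too.

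By size, 1807 sites were at least 1 higher in BGT/MspI in both pairs (0.206%), 2872 at least 1 lower (0.328%) and 3442 opposite. By the test, 13 sites were called higher (0.00148%) and 20 lower (0.00228%), with 56593 at an unadjusted p under 0.05. The 13 began with the Wasl site (limma adjusted p = 6.48e-08) and a site in Pik3r2, a regulatory subunit of phosphoinositide 3-kinase (2.12 and 3.43, with MspI from 85.8 to 11.2 and from 68.1 to 3.43). In each of the 20 lower sites BGT was lower in infarcted tissue of both genotypes, and in each of the 13 higher sites MspI was. At chr19:23687568 inside Ptar1, a prenyltransferase subunit gene, BGT went from 71.2 to 5.10 and from 53.5 to 4.68, and MspI from 73.3 to 61.8 and from 72.5 to 84.8. Both infarcted samples were low, and the shifts were −3.57 and −3.75 (limma adjusted p = 5.18e-06).

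At chr10:77589439 inside Pttg1ip, BGT went from 58.9 to 4.73 and from 69.1 to 5.83 (−3.06 and −2.99, limma adjusted p = 0.000483). Tet1, the enzyme that makes 5hmC, held a called site at chr10:62818979, with BGT from 40.1 to 3.96 and from 50.8 to 3.28 and MspI from 22.2 to 12.6 and from 22.2 to 11.6 (−2.53 and −3.02, limma adjusted p = 0.00246). At the Pttg1ip and Tet1 sites the infarcted BGT values were also below the 5th percentiles of their libraries, 5.57 and 7.07. Tet1 also held a called higher HpaII/MspI bin (chr10:62870001-62880000, 0.40 and 0.29, limma adjusted p = 0.0296). It was the 1 call among 33 bins with at least 10 sites of the DNA methylation and repair genes. The share called higher over all such bins was 0.786%. Another Tet1 bin, chr10:62840001-62850000 with 4 sites, shifted by −0.29 and −0.28 and was not called. The Tet1 promoter printed above lies outside both bins. Esrrg, a nuclear receptor of mitochondrial genes, had a called site at chr1:188155174 (−3.37 and −2.06), and Mettl1, a tRNA methyltransferase, one at chr10:127042023, with BGT from 62.7 to 6.98 and from 63.0 to 8.23. Without the genotype block 1 site was called higher and 1 lower, and without the wild-type non-infarcted sample the counts were 39 and 115.

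Where a site lay mattered little to its median HpaII/MspI shift, but it went with how often large shifts occurred. Within 1 kb of a gene end, 0.492% of sites were at least 1 higher in both pairs and 0.263% at least 1 lower, against 1.06% and 0.756% inside genes and 0.951% and 0.899% farther than 10 kb from a gene. Shifts of that size in opposite directions were rarer near gene ends too, at 0.506% against 1.31% and 1.42%. The pattern is thus one of large shifts of any kind, shared or not. By mean level, the 219201 sites with the lowest HpaII/MspI had 1.8% higher, 1.45% lower and 2.72% opposite. The 219201 with the highest had 0.378%, 0.163% and 0.281%. In BGT/MspI the sites near gene ends had median shifts of −0.23 and −0.04, with 0.119% higher, 0.599% lower and 0.399% opposite.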

How the data were processed

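Each sample had 3 HMST-seq libraries, HpaII, MspI and MspI after glucosylation (BGT), per the labels' protocols. What the authors deposited is, for each CCGG site, a normalized signal of each library. The genome build is mm10, per the submitters' processing notes. Aligner, filters, way of normalizing and pooling: not given in the sources used here. Tag counts could not be recovered, so counting error is unknown.

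Sites on the 19 autosomes listed in all 4 samples with mean MspI of at least 10 were used, singly and summed in 10-kb bins of at least 3 sites. Log2 HpaII/MspI and BGT/MspI, without a pseudocount, were centred on the sample median and fitted with limma 3.58.1 in R 4.3.3 as infarct plus genotype. Genotype is the pairing the labels give; deviations of the 2 samples of a genotype correlated at 0.0482 across bins for HpaII/MspI and 0.0517 for BGT/MspI. A call needed an adjusted p under 0.05 and the same sign in both pairs. The fitting code was tested on simulated data. Descriptions and plots used Python 3.11.15, numpy 2.4.6, pandas 2.3.3 and matplotlib 3.10.9.

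The members and the 14 gene lists (400 of 412 symbols matched a RefSeq gene) were chosen with earlier results of these data known. Named features were ranked by the smaller of the 2 pairs' shifts. They were the 10 leading bins per ratio and direction and the 5 leading sites with mean MspI of at least 20. Of the gene lists, up to 2 leading genes per direction were named in HpaII/MspI. Exceptions are said to be so in the text, and 1 called gene is not reported here. The fits on bins of at least 10 sites and with a prior spread following the number of sites were added after seeing the data. Other alternatives are described at the end.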

Additional observations from a re-analysis of the deposited data

How the results depend on the processing

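The fit over bins of at least 3 sites called 0 bins for HpaII/MspI and 0 for BGT/MspI. For HpaII/MspI it called 194 higher and 149 lower with a robust prior spread following MspI, 4 and 1 with at least 6 sites per bin, and, added after seeing the data, 163 and 68 with the spread following the number of sites and 128 and 88 with at least 10 sites. For BGT/MspI these settings gave 12 and 5, 23 and 22, 1 and 3, and 9 and 8, a pseudocount of 5 gave 12 and 19, 5-kb bins 1 and 2, and 50-kb bins 3 lower; leaving out each sample in turn gave 0 to 1 lower. Without the replicate block, that is without pairing by genotype, 0 bins were called for either ratio. The counts by size in HpaII/MspI, 1114 bins in all, became 375 with a pseudocount of 5, 734 with mean MspI of at least 20 and 730 with HpaII alone; for BGT/MspI 548 became 192, 294 and 352.

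Among single sites, HpaII/MspI gave 2 higher calls with the pseudocount and 0 main calls; its 15093 sites by size became 3540 with the pseudocount and 9546 with mean MspI of at least 20. For BGT/MspI 4679 sites by size became 991 and 2275, and 2243 with BGT alone. Its 13 higher and 20 lower calls became 48 and 71 with mean MspI of at least 20, 41 and 75 with quantile normalization, 51 and 302 with BGT alone, 24 and 34 without chromosomes 1 and 8, 118 and 93 with the robust prior and 1 and 1 without the replicate block. The pseudocount gave 46 lower, and mean MspI of at least 5 gave 6 higher. Leaving out each sample in turn gave 1 to 2172 higher and 6 to 1321 lower, the highest without Neil3-null non-infarcted tissue. The causes were not tested.

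Each group has 2 samples of different genotype, so the disagreement between pairs holds animal, library and genotype by infarct differences together, and these cannot be told apart. With 1 residual degree of freedom the calls lean on the spread shared across bins. The depth behind a signal is unknown, the low end of HpaII differed between libraries, and the ratios are relative to each sample's median, so a change of the whole genome would not be seen.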
